A study of Mus musculus with 2 samples.

Results

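The Slc25 genes encode the carriers of small molecules across the inner mitochondrial membrane. Members were taken as the annotated protein-coding genes whose symbol is Slc25a followed by a number, which gave 47 of the 55536 genes measured and of the 22028 protein-coding genes. They have 256 annotated transcripts, of which 126 are protein-coding. Total RNA was sequenced from adrenal glands of male B6CASTF1/J mice, an F1 hybrid between a C57BL/6 and a CAST strain, at 2 months of age, with no treatment named in the labels. There were 2 libraries in 1 group, labelled biological replicates, each from 300 ng of RNA with ERCC spike-ins (synthetic control RNAs) and a directional library kit. The sample descriptions number the animals differently, but the library descriptions and the donor field give both libraries the same number and identifier. Separate animals therefore rest on the sample descriptions, and the spread between the libraries may be in part technical. With 1 group there was no comparison of conditions and no test. Every ratio given here is replicate 2 over replicate 1, 1 library against 1 library.

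Carriers of this family share a fold built from repeated membrane-spanning units, and most exchange a substrate of the matrix for one of the cytosol. They supply phosphate and ADP for ATP synthesis, move the acids and amino acids that link the citric acid cycle to the cytosol, and import cofactors. In the adrenal cortex the mitochondria also hold the enzymes of the initial and final steps of steroid synthesis, which draw reducing power from matrix substrates.

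Sequencing depth was 34454892 expected counts in replicate 2, against 36512736 in replicate 1. Markers of the labelled tissue were high: 7 cortical genes of steroid synthesis and its control summed to 16400 TPM (transcript abundance per length, scaled to a fixed sum per library) in replicate 2 and 14800 TPM in replicate 1, and 6 chromaffin genes of the medulla to 1860 and 2110 TPM. Markers of several other cell types differed between the libraries, among them those of chromaffin cells. Of these, 5 of 6 were lower in replicate 2 beyond counting error (median log2 ratio -0.27), against 17.4% of all genes. The 7 brown adipocyte markers summed to 787 TPM in replicate 2 and 1540 TPM in replicate 1, the 6 white adipocyte markers to 2770 and 3510 TPM, and the 5 red cell markers to 1170 and 1950 TPM. The 5 liver markers summed to 7.96 and 1.87 TPM. Of these, 3 of the 3 that had enough counts were higher in replicate 2 beyond counting error, against 16.7% of all genes. The shares of all genes were not matched to the markers by count, and counting error is narrow at high counts. The 6 muscle markers summed to 0.22 and 0.13 TPM, and all 4 testis markers were at 0 counts in both. In bulk tissue, fewer cells of a type and less RNA per cell cannot be told apart.

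Slc25 mRNA as a whole was at a similar level in both libraries, and a few members held most of it. The 47 members summed to 1469 TPM in replicate 2 and 1396 TPM in replicate 1, with a mean of 1432 ± 51.3 TPM (SD, n = 2). That was 0.417% and 0.389% of the TPM on protein-coding genes. The phosphate carrier Slc25a3 alone took 31.6% of the family's TPM in replicate 2 and 27.2% in replicate 1. Without it the sums were 1004 and 1017 TPM, so Slc25a3 made up the difference. The 4 leading members took 55.1% and 54.2%, and the 10 leading members 77.4% and 75.1%.

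Most of the family was detected. In both libraries 38 of the 47 members measured at least 1 TPM, against 54.2% of all protein-coding genes. Their median was 13.6 TPM, and that of all protein-coding genes at this level was 9.75 TPM. There were 22 members at 10 TPM or more, 6 at 50 TPM or more and 3 at 100 TPM or more, a level that 2.04% of protein-coding genes reached. The other 9 members were under 1 TPM in both libraries. The order of the members was nearly shared, with a Spearman rho of 0.9905 over the 47 genes, which share their libraries and are not independent. Of the 46 pairs of neighbours in this order, 25 had overlapping ranges over the libraries and 21 did not, so many single ranks are not settled by 2 libraries.

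**Figure D1:**
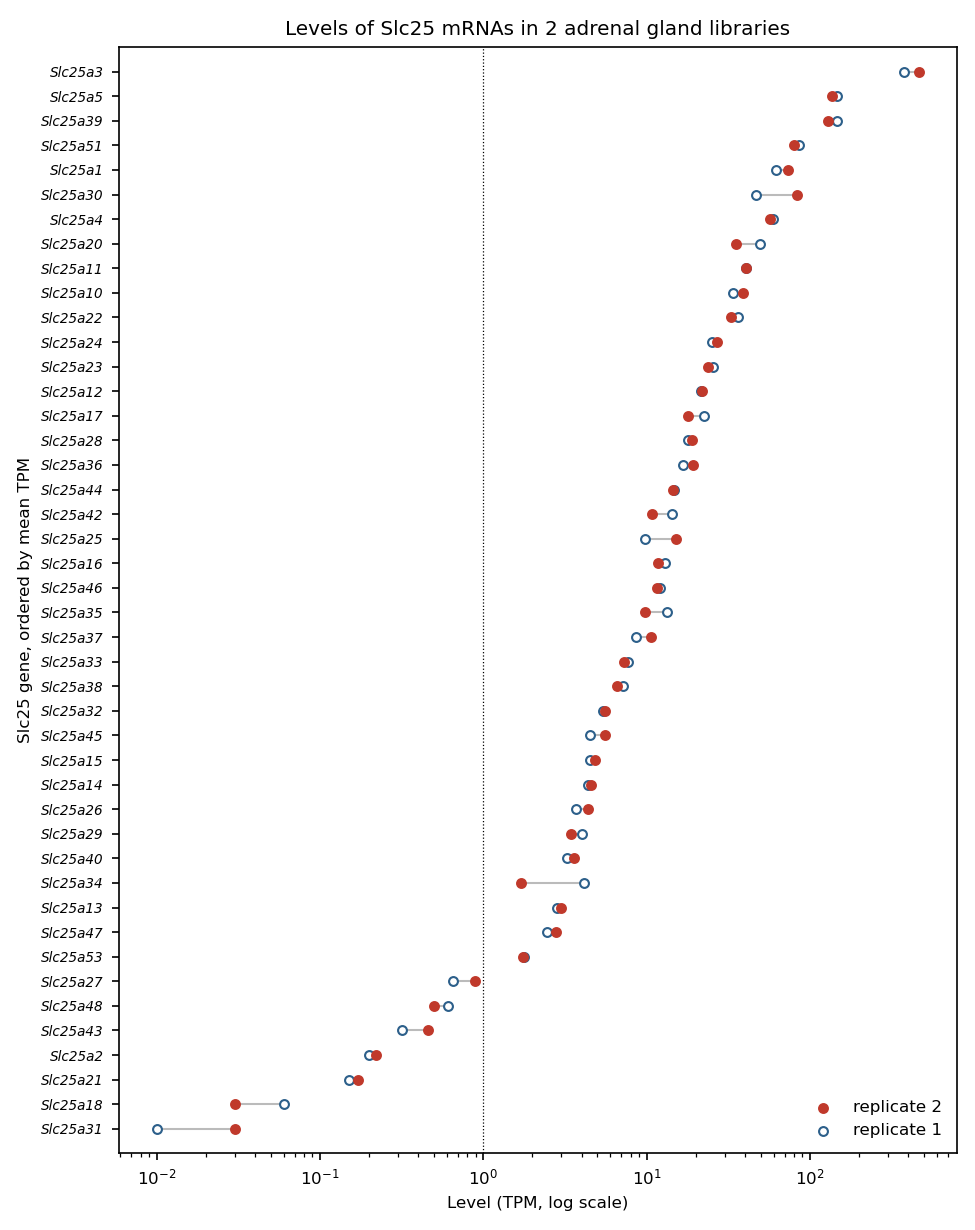
Level of 44 Slc25 mRNAs in TPM on a log axis, ordered by mean, with 1 filled point for replicate 2 and 1 open point for replicate 1; the dotted line is 1 TPM, and Slc25a41 and Slc25a54, at 0 in both libraries, are among the members not drawn. Slc25a3 stands above the rest at 465 and 379 TPM, and the widest gaps among members over 1 TPM are those of Slc25a34 and Slc25a30.

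Carriers of phosphate and adenine nucleotides led the family. Slc25a3, which imports the phosphate used to make ATP, lies at chr10:91116574-91124059 on the minus strand (GRCm38, GENCODE M21) and ranked 64 among all protein-coding genes. It measured 465 TPM in replicate 2 and 379 TPM in replicate 1 (mean 422 ± 60.6 TPM, SD, n = 2). Slc25a3 has a pair of mutually exclusive versions of exon 3, and the upstream one is known as the heart and muscle form. The sequences of both are shown because they distinguish its isoforms. Each is written 5′ to 3′ on the minus strand of GRCm38, with capitals at the bases that are identical in the alignment of the exons.
Slc25a3 upstream exon 3, chr10:91122207-91122331: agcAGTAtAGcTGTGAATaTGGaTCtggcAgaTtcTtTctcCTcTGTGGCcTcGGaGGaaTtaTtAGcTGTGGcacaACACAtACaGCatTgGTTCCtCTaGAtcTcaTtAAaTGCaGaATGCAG
Slc25a3 downstream exon 3, chr10:91121922-91122043: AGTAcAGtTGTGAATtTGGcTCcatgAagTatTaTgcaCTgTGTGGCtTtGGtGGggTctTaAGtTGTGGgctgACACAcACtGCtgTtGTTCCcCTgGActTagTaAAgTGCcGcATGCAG
The exons have 125 and 122 bases and were identical at 77 of 122 aligned bases (63.1%).

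The downstream exon carried nearly all of the spliced Slc25a3 mRNA. The transcripts of 1612 and 1483 bases, whose coding sequences of 1071 bases are identical and hold the downstream exon, summed to 92.23% of the gene's TPM in replicate 2 and 92.76% in replicate 1. Transcripts with the upstream exon alone summed to 1.01% and 1.76%, or 4.69 and 6.69 TPM. The read-based tables, a second deposited quantification of the same reads, gave 77.88% and 78.68% for the downstream exon and 5.62% and 5.73% for the upstream one. The methods split these transcripts differently: the 1612-base transcript had 79.8% and 83.1% in the alignment-based tables, against 22.8% and 23.8% in the read-based tables. Only the sum over both can therefore be read as a level of this coding sequence. Muscle markers, given above, were near 0 in both libraries.

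The ADP/ATP carriers exchange the ATP made in the matrix for cytosolic ADP. Slc25a5, the form found in most dividing and many resting tissues, measured 136 TPM in replicate 2 and 146 TPM in replicate 1 (mean 141 ± 6.87 TPM, SD, n = 2). Slc25a4, the form known from heart and muscle, measured 56.8 and 59.6 TPM (mean 58.2 ± 1.99 TPM). Slc25a5 was thus 2.4 times Slc25a4 in replicate 2 and 2.45 times in replicate 1, a ratio that hardly moved between the libraries. Slc25a31, the germ cell form, had 2 counts and 1 count. The coding sequences of Slc25a4 and Slc25a5 are identical at 77.4% of 894 aligned bases with no identical run over 20 bases, and the deposited posterior SD of the Slc25a5 count was 1.22 and 1.1 counts. Of the calcium-regulated carriers of ATP-Mg and phosphate, Slc25a24 measured 27.0 and 25 TPM, Slc25a23 23.7 and 25.3 TPM, and Slc25a25 15.2 and 9.83 TPM. Slc25a41 had 0 counts in both libraries, which allows up to 3 counts in each. The ranges of Slc25a24 and Slc25a23 overlapped, so their order is not settled.

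Carriers of carboxylic acids and of aspartate and glutamate summed to 211 TPM in replicate 2 and 197 TPM in replicate 1 over 8 members. Slc25a1, which exports citrate for cytosolic acetyl-CoA, measured 73.4 and 62.1 TPM. Slc25a11, which exchanges oxoglutarate for malate, measured 40.8 and 40.6 TPM, and the dicarboxylate carrier Slc25a10 measured 38.9 and 33.7 TPM. All 3 were above the aspartate/glutamate carriers Slc25a12 and Slc25a13, and Slc25a1 was above the other two in both libraries. Among the glutamate carriers, Slc25a22 measured 32.8 and 36.2 TPM while Slc25a18 had 2 and 4 counts. Of the calcium-activated aspartate/glutamate carriers, Slc25a12 measured 21.8 and 21.4 TPM and Slc25a13 measured 2.99 and 2.82 TPM, a ratio of 7.28 and 7.6 at the gene level. On protein-coding transcripts alone, Slc25a12 measured 3.23 and 2.81 TPM and Slc25a13 2.99 and 2.77 TPM. That was a ratio of 1.08 and 1.01, and 1.3 in both libraries by the read-based tables. The coding ratio depends on how reads were assigned among the transcripts of Slc25a12, which are described further below. The oxoadipate carrier Slc25a21 had 5 and 7 counts. The enzymes beside these carriers were abundant: Me1, the cytosolic malic enzyme, measured 543 and 466 TPM, and Acly, which cleaves the exported citrate, 427 and 361 TPM.

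Carriers of cofactors and acylcarnitines, 12 members, were all at 1 TPM or more and summed to 352 TPM in replicate 2 and 406 TPM in replicate 1. Slc25a39, which imports glutathione, measured 128 and 146 TPM (mean 137 ± 12.5 TPM, SD, n = 2), and its range overlapped that of Slc25a5. Its relative Slc25a40 measured 3.61 and 3.27 TPM, so Slc25a39 was 35.6 and 44.6 times as high. The NAD+ carrier Slc25a51 measured 79.6 and 86.3 TPM (mean 83.0 ± 4.71 TPM). By mean level in the alignment-based tables, both Slc25a39 and Slc25a51 were among the 4 leading members of the family. In replicate 2, however, Slc25a30 stood above Slc25a51. The read-based tables gave Slc25a51 120 TPM in replicate 2 and 127 TPM in replicate 1, below Slc25a1 at 183 and 143 TPM. There Slc25a39 was above Slc25a5 in both libraries, at 330 and 334 TPM against 241 and 244 TPM. Further down the order was Slc25a20, which imports acylcarnitines for fatty acid oxidation, at 35.2 TPM in replicate 2 and 49.1 TPM in replicate 1. Slc25a17, a peroxisomal member of the family, measured 17.9 and 22.4 TPM. Slc25a42, which imports coenzyme A, measured 10.8 and 14.3 TPM, and Slc25a16, also linked to coenzyme A, 11.8 and 12.9 TPM, with overlapping ranges that leave their order unsettled. The pyrimidine nucleotide carriers differed, with Slc25a36 at 19.2 and 16.6 TPM and Slc25a33 at 7.3 and 7.74 TPM. Slc25a32, which carries folate or FAD, and Slc25a26, which imports S-adenosylmethionine, lay between 3.68 and 5.6 TPM.

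The remaining groups were smaller. The mitoferrins, which import iron, both measured over 8 TPM: Slc25a28, found in many tissues, at 18.9 and 18 TPM, and Slc25a37, known for its role in red cell precursors, at 10.6 and 8.61 TPM. The red cell markers were lower in replicate 2, while Slc25a37 was higher there, and the part of red cells in its level was not tested. Among amino acid carriers, Slc25a44 (branched-chain amino acids) measured 14.6 and 14.8 TPM, Slc25a38 (glycine) 6.58 and 7.18 TPM, Slc25a15 (ornithine) 4.81 and 4.53 TPM, and Slc25a29 (basic amino acids) 3.45 and 4.04 TPM. Slc25a2, an ornithine carrier without introns, had 10 counts in each library. Of the members with other or unsettled roles, Slc25a46, of the outer membrane, measured 11.6 and 12.1 TPM, and Slc25a35 9.83 and 13.3 TPM. Slc25a54 had 0 counts in both.

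Replicate ratios were computed from expected counts scaled to library size, on the log2 scale, so they can differ from ratios of TPM. For some members the difference was not small, as for Slc25a53, at 0.55 from counts and -0.01 from TPM. Of the 40 members with a mean of 20 counts or more, 16 were lower in replicate 2 beyond counting error, 7 were higher and 17 were within it. Counting error means the 95% exact (Clopper-Pearson) interval, which leaves out variation between animals and preparations. Over all 15667 genes with this minimum, 34.1% were beyond counting error, 17.4% lower and 16.7% higher. The interval narrows as counts rise, and here and below this share of all genes was not matched to the members by count. It therefore does not show whether the members differed more than genes of like count. The members' median log2 ratio was -0.09, and that of all genes 0.00 to 2 decimals. The median size of the log2 ratio was 0.17 for members and 0.13 for all genes. The split of members depended on scaling: with total counts, 11 were lower and 11 higher. The median of all genes then stood at 0.07 and that of the members at -0.01. The change of scaling shifts every log2 ratio by the same amount, so the gap between these medians could not change.

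**Figure D2:**
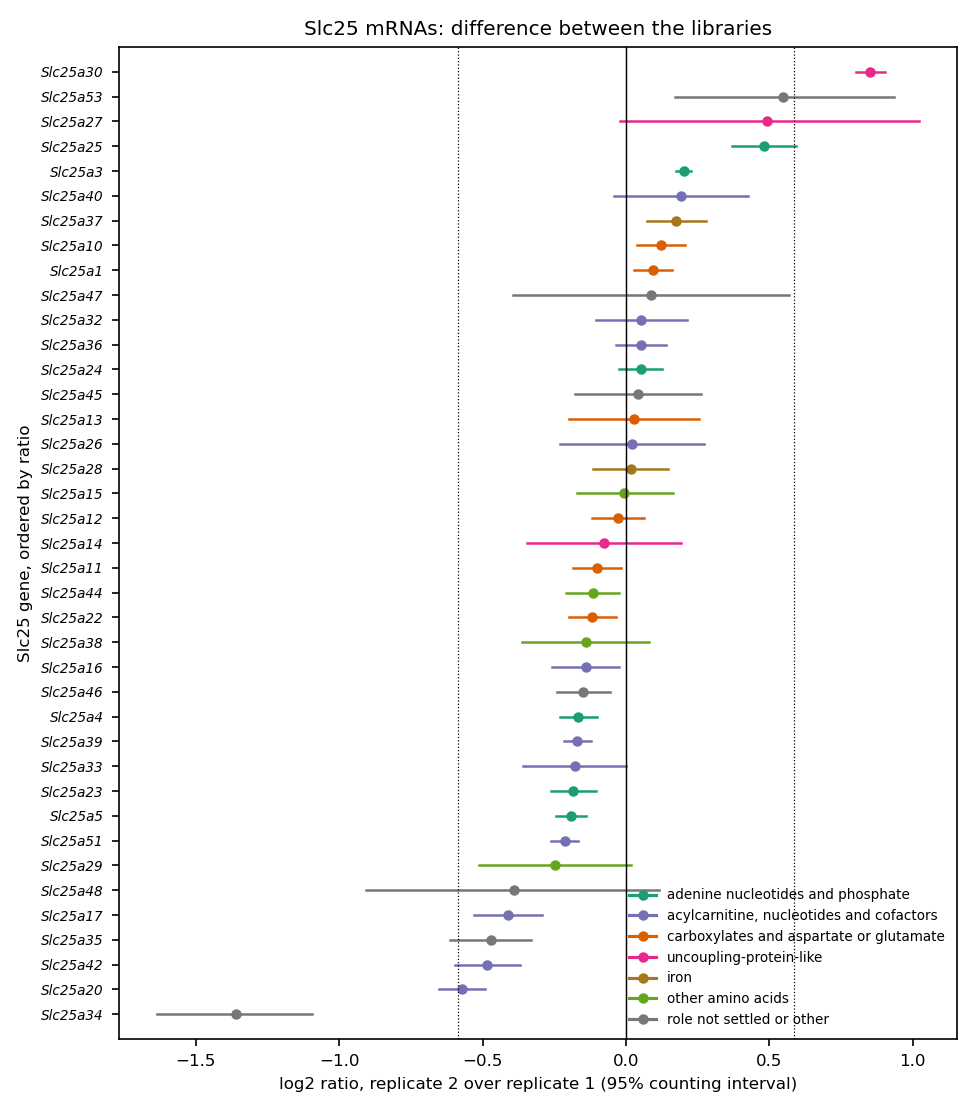
log2 ratio of replicate 2 over replicate 1 for 39 of the 40 Slc25 genes with a mean of 20 counts or more, with 95% counting intervals as bars and colours for the role of the carrier; dotted lines mark 1.5-fold. Slc25a30 (0.85) is past the upper line and Slc25a34 (-1.36) past the lower one, while Slc25a20 (-0.57) lies just inside it.

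Among the 37 members with a mean of 100 counts or more, Slc25a30 was over 1.5-fold higher in replicate 2 and Slc25a34 over 1.5-fold lower, against 2.68% of the 12430 genes with that minimum past 1.5-fold in either direction (1.26% higher and 1.42% lower). Slc25a30 is an inner membrane carrier related to the uncoupling proteins and described in mouse kidney. It lies at chr14:75760117-75787037 on the minus strand and measured 83.6 TPM in replicate 2 and 46.9 TPM in replicate 1, from 8887 and 4953 counts. The log2 ratio was 0.85 with an interval of 0.80 to 0.90, or 1.81-fold. The members nearest to it in kind were low, with Slc25a14 at 4.57 and 4.35 TPM and Slc25a27 at 0.89 and 0.65 TPM. The 4 kidney markers summed to 5.03 and 1.86 TPM, and their part in the result was not tested. Slc25a34, whose substrate is not settled, lies at chr4:141618824-141623821 on the minus strand and measured 1.71 and 4.12 TPM from 159 and 412 counts. Its log2 ratio was -1.36 with an interval of -1.64 to -1.10, while its close relative Slc25a35 had -0.47. Brown and white adipocyte markers were also lower in replicate 2, as given above, and their part in these ratios was not tested.

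The 250 bases upstream of the starts of the 2 genes past 1.5-fold are shown, since their mRNAs moved in opposite directions. Sequences are from RefSeq (GRCm38.p6), 5′ to 3′ on the minus strand, with capitals at the SP1 box GGGCGG or its complement.
Slc25a30, chr14:75787038-75787287: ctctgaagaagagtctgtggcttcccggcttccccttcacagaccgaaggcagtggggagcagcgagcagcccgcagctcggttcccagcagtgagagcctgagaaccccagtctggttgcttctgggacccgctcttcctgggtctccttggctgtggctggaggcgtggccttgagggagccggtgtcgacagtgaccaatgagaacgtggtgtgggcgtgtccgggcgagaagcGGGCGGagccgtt
Slc25a34, chr4:141623835-141624084: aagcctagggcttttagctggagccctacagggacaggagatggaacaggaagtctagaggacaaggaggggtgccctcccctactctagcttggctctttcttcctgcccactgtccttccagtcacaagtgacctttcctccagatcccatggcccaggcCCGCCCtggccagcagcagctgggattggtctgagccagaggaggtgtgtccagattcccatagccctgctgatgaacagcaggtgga
The Slc25a30 window, 250 bases before to 50 after the start, had 66.7% G and C and 25 CpG dinucleotides. The Slc25a34 window had 59% G and C and 1 CpG.

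A RefSeq promoter was matched for 36 of the 47 members, and motifs were searched on both strands of the same window. Counts are of genes: a gene with several promoters was counted once if any of its windows held the motif. The SP1 box GGGCGG was in 30 of the 36 members (83.3%), against 38.2% of all 27025 genes with a promoter. With windows averaged per gene, the members also had more G and C, with a median of 60.2% against 52.8%, and more CpG, 17.25 against 7. Whether the SP1 count follows from that composition was not tested. The E-box CACGTG was in 7 members (19.4%, against 8.09% of all). The cAMP response element TGACGTCA was in 2 members, Slc25a25 and Slc25a36 (5.56%, against 2.03%). The site CAAGGTCA, bound by the NR5A factors that control steroid synthesis genes, was in 0 of the 36, against 1.76% of all genes with a promoter. This says only that these letters are not in these windows. A match is a run of letters and not a bound site.

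Of the 12 acylcarnitine and cofactor carriers, the largest group of members, 7 were lower in replicate 2 beyond counting error and 0 were higher, with a median log2 ratio of -0.17. Over all genes 17.4% were lower and 16.7% higher, and whether this group differed from the other carriers was not tested. Slc25a20 stood at -0.57 with an interval of -0.65 to -0.49, Slc25a42 at -0.48 and Slc25a17 at -0.41. Among the carnitine shuttle enzymes that act beside Slc25a20, 4 of 5 were lower and 1 was higher (median -0.47), beside the same 17.4% and 16.7% of all genes. Cpt1b, the muscle and brown fat form of the outer membrane enzyme, measured 32.5 TPM in replicate 2 and 57.8 TPM in replicate 1, and Cpt2 47.3 and 68.0 TPM. Cpt1a, the form known from liver, went the other way at 72.3 and 62.0 TPM. The 5 liver markers, which summed to 7.96 and 1.87 TPM with Alb alone at 5.06 and 0.88 TPM, were also higher in sum. Their part in the Cpt1a ratio was not tested. With total counts, 6 of these carriers were lower and 2 higher, and 3 of the enzymes were lower. For comparison, 6 of 7 brown adipocyte markers were lower, at a median of -1.0, and 6 of 6 white adipocyte markers, at -0.52. Their part in the lower carriers was not tested.

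Of the 5 family members under other symbols, 4 were lower beyond counting error, against 17.4% of all genes. Ucp1, the uncoupling protein of brown fat, measured 303 TPM in replicate 2 and 629 TPM in replicate 1, and Ucp3 8.59 and 17.0 TPM. Ucp2, found in many tissues, measured 73.8 and 73.5 TPM, within counting error. Mtch1 and Mtch2, of the outer membrane, had log2 ratios of -0.28 and -0.30. All 3 outer membrane VDAC pores were lower, with a median of -0.13 (2 of 3 with total counts), and of the 7 pyruvate and sideroflexin carriers 3 were lower and 1 higher. Over all genes 17.4% were lower and 16.7% higher, so counts over lists this small are given as a description.

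**Figure D3:**
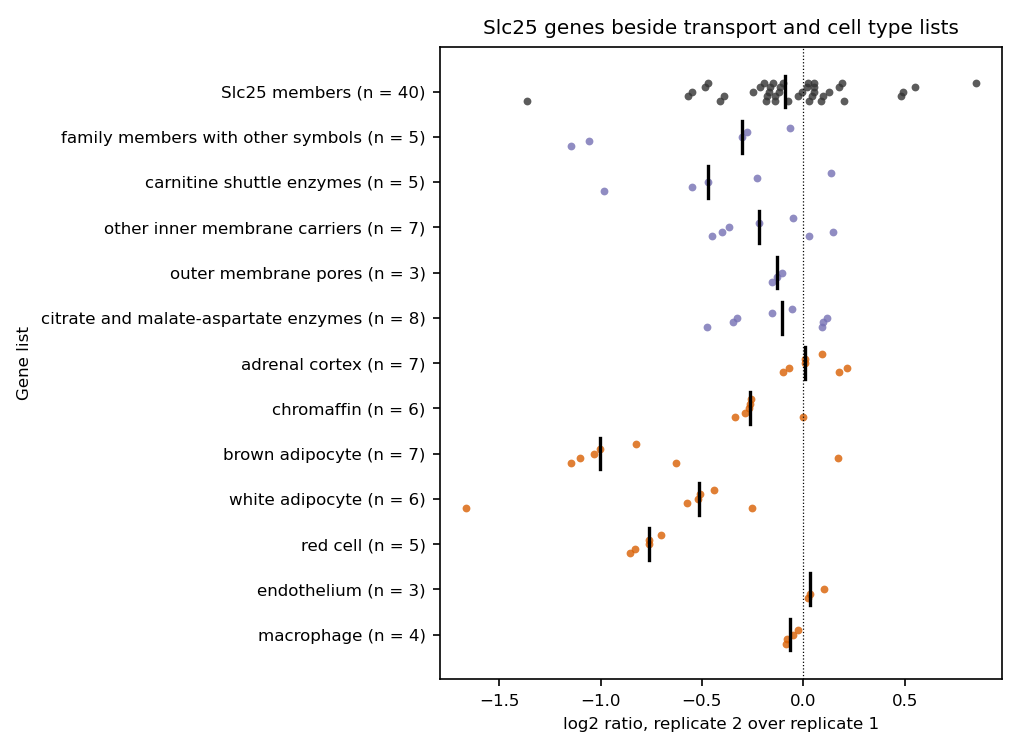
log2 ratio of replicate 2 over replicate 1 for single genes (points) with the median of each list (bar), for genes with a mean of 20 counts or more. The Slc25 members centre near -0.09 and the cortical markers near 0.01, while brown adipocyte (-1.0), red cell (-0.76), white adipocyte (-0.52) and chromaffin (-0.27) markers lie further left.

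Members of the other groups moved in both directions or were few. Over all genes 17.4% were lower beyond counting error and 16.7% higher. Among the adenine nucleotide and phosphate carriers, 3 were lower, led by Slc25a5 at -0.19 with Slc25a23 and Slc25a4, and 2 were higher, Slc25a25 at 0.48 and Slc25a3 at 0.20. With total counts, 3 were lower and 3 higher. Set against its relative, Slc25a24 was 1.78 times Slc25a25 in replicate 2 and 2.55 times in replicate 1. Of the carboxylate and amino acid exchangers, Slc25a10 (0.12) and Slc25a1 (0.10) were higher, and Slc25a22 (-0.12) and Slc25a11 (-0.10) were lower. As a ratio of TPM, which also divides by the gene length of each library, Slc25a11 stood at 0.01, and with total counts neither Slc25a22 nor Slc25a11 was beyond counting error. Of the 8 enzymes beside these carriers, 4 were lower beyond counting error and 3 were higher, with a median of -0.105. The lower ones were Cs, which makes citrate in the matrix, at -0.48, Ogdh (-0.345), Mdh2 (-0.325) and Mdh1 (-0.16). Acly (0.12), Got1 (0.10) and Me1 (0.09) were higher. Of the 4 other amino acid carriers with enough counts, all had ratios below 0, and Slc25a44 (-0.12) alone was beyond counting error. With total counts, 0 of the 4 were beyond it, and the ratio of Slc25a15 changed sign. Among the 7 members with other or unsettled roles, Slc25a34, Slc25a35 (-0.47) and Slc25a46 (-0.15) were lower and Slc25a53 (0.55) was higher. With total counts, 2 of these 7 were lower and 1 was higher. Slc25a37 (0.18) was the higher one of the mitoferrins beyond counting error, and Slc25a30 of the carriers like the uncoupling proteins. With total counts, 2 of the 3 carriers like the uncoupling proteins were higher.

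The TPM of most members lay mainly on protein-coding transcripts. Of the 38 members at 1 TPM or more, 36 have over 1 transcript, and their leading transcripts held 77.4% of the gene's TPM at the median, 80.6% in replicate 2 and 74.1% in replicate 1. The leader was protein-coding in 33 of the 36, and was the same by both quantifications in 28. It held 90% or more in 7 members and under 50% in 6. Protein-coding transcripts took a median of 89% of a member's TPM.

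Slc25a12, Slc25a47 and Slc25a53 had under 50% on protein-coding transcripts. In Slc25a12, a transcript annotated as a target of nonsense-mediated decay held 66.2% in replicate 2 and 68.7% in replicate 1, and 47.0% and 48.7% in the read-based tables. The transcript that encodes the full carrier in 2031 coding bases held 14.8% and 13.1%. The decay form lacks an exon of 116 bases at chr2:71333605-71333720 and has a coding sequence of 261 bases. Its annotated first exon, 21 bases against 237 bases, and last exon, 664 bases against 4291 bases, are also shorter. The transcripts thus differ in length, 2392 bases against 6351 bases, as well as in the exon. As quantified, the level of Slc25a12 given above was mostly assigned to transcripts other than the annotated coding one. This is an assignment of reads among transcripts that share exons. Whether the exon of 116 bases was absent from the mRNA was not tested. Slc25a47 had a mean of 19.4% and Slc25a53 11.1% on protein-coding transcripts. Slc25a53 measured 1.76 and 1.77 TPM, although its counts were 144 and 99 and its log2 count ratio 0.55. Its deposited gene length, weighted by transcript, was 2359 bases in replicate 2 and 1537 bases in replicate 1. It overlaps Zcchc18, which had 400.0 and 427 counts, by 5318 bases on the opposite strand, and the strand setting of the counting is not given in the sources used here.

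**Figure D4:**
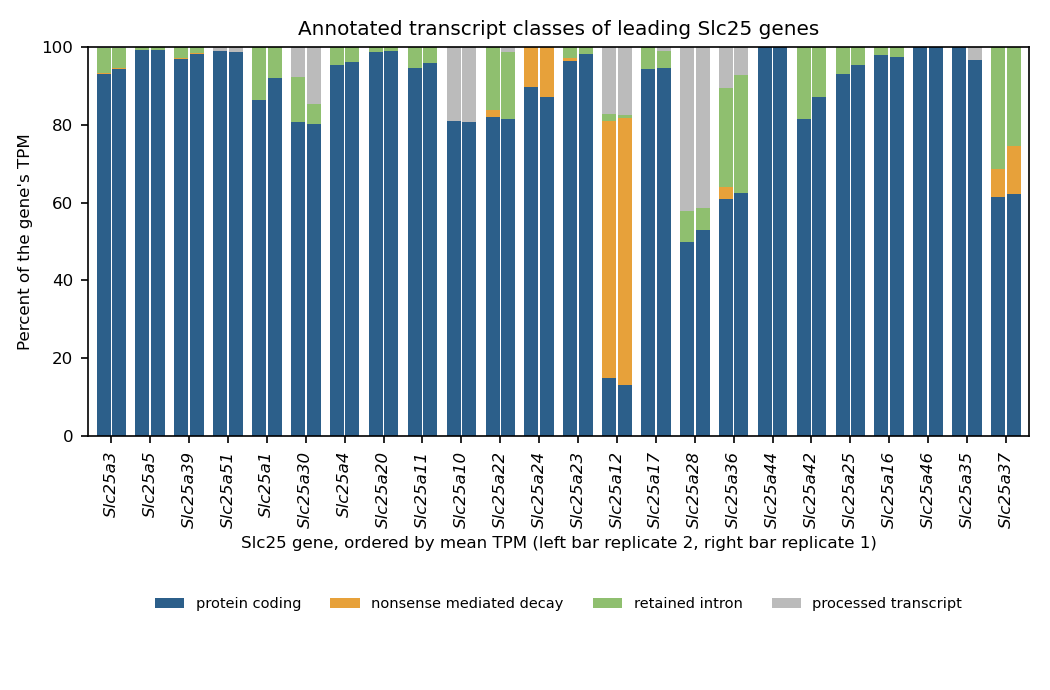
Share of each gene's TPM on 4 classes of annotated transcript for 24 of the 25 leading Slc25 genes, with the left bar of each pair for replicate 2 and the right bar for replicate 1. Slc25a12 is mostly nonsense-mediated decay (66.2% and 68.7%), and in Slc25a28 a processed transcript holds 42.3% and 41.4% (14.4% and 19.1% in the read-based tables).

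Gene-level TPM was compared between the quantifications with the median offset over all genes removed. Over all genes the alignment-based TPM lay below the read-based TPM by a median log2 ratio of -0.92 in replicate 2 and -0.84 in replicate 1, and over members by -0.93 and -0.85. After centring on all genes, 0 of 41 members at 1 TPM or more by either method were past 2-fold in both libraries, against 1.86% of 13139 protein-coding genes and 7.39% of all 15236 genes at that level. At a share of 1.86% few calls would be found among 41 genes, so the count of 0 says little about the members. The member nearest the limit was Slc25a16, at -0.54 and -0.77. Smaller differences remained among leading members, with Slc25a1 at -0.40 and -0.36 and Slc25a51 at 0.33 and 0.28. The order of Slc25a1 and Slc25a51 was reversed between the quantifications in both libraries. The members lie on 19 chromosomes, and 10 overlap another protein-coding gene. Close pairs of members were near or far apart in level. Slc25a29 and Slc25a47 lie 162 bases apart on opposite strands, at 3.45 and 2.78 TPM in replicate 2 and 4.04 and 2.44 TPM in replicate 1. Slc25a23 and the undetected Slc25a41 lie 2056 bases apart, and Slc25a24 and the undetected Slc25a54 6461 bases apart. Slc25a5 lies 18448 bases from Slc25a43, which measured 0.46 and 0.32 TPM.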

How the data were processed

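Values came from 2 libraries. Per the labels and file headers, the build was mm10 (GRCm38) with GENCODE M21; names of the aligner and quantifiers are not given in the sources used here. The alignment-based tables deposited by the authors hold expected counts, TPM and FPKM per gene and transcript, with columns named as RSEM writes them. The read-based tables deposited by the authors hold estimated counts and TPM per transcript, with columns named as kallisto writes them, and were summed per gene. The deposited gene tables also give a posterior SD of each count, a signal-type value of the quantifier's own uncertainty, per the file headers. Expected counts over genes were 34149995 in replicate 2 and 36182740 in replicate 1; ERCC and transfer RNA rows, 0.885% and 0.904%, were left out. Ratios are log2 of counts plus 0.5 over library sizes scaled by TMM (edgeR 4.0.16), over genes with at least 10 counts in each library. Intervals are exact 95% Clopper-Pearson intervals of the share of counts in replicate 2, and like the allowance of 3 counts at 0 they cover counting error only. Ratios needed a mean of 20 counts, and 1.5-fold calls a mean of 100. Method differences used TPM plus 0.1. Alternatives were DESeq2 1.42.0 size factors, total counts, TPM ratios, read-based counts, other minimums and leaving out a library. Members and lists were chosen with earlier results of these data known. Named with full values were the 15 leading members, those past a threshold and sets of like carriers; 1 member of these is not reported by itself but enters the counts, sums and medians. Whether reads of the CAST alleles were assigned equally was not tested.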

Additional observations from a re-analysis of the deposited data

How the results depend on the processing

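The median log2 ratio of members was -0.09 with TMM, DESeq2 size factors or 1 count added, -0.12 from read-based counts, -0.08 with no minimum and -0.10 with a minimum of 100. It moved to -0.00017 as a ratio of TPM, where the median of all genes was 0.09. Slc25a11 (0.008) and Slc25a53 (-0.008) changed direction as a ratio of TPM; the deposited gene length of Slc25a53 differed between the libraries, and for Slc25a11 the cause was not tested. Members past 1.5-fold numbered 4 with no minimum count, 2 in each direction, and 3 with total counts or TPM ratios, where Slc25a53 (0.62, total counts) or Slc25a25 (0.62, TPM) passed as well. Summed TPM was 2917 in the read-based tables and 1514 as FPKM, and 1396 to 1469 with either library left out. Members past 2-fold between methods numbered 11 without centring, all lower in the alignment-based tables, and 0 to 0 with either library left out. The median share of the leading transcript was 63.3% in the read-based tables, and 74.1 to 80.6% with either library left out. The number at 1 TPM or more stayed at 38 with either library left out. Of 200 ratios of single members under 5 other settings, 177 lay within the counting interval of the value reported. As ratios of TPM 24 of 40 lay within it and 2 were reversed, and with total counts 33 of 40 lay within it. All 40 lay within it with DESeq2 size factors, 1 count added or read-based counts. The first 2 of these settings barely change the ratios, so their agreement says little. Depth limits members under 20 counts, whose ratios are not read. No paired analysis was possible because there is 1 group.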
